A study of Mus musculus with 59 samples.

Results

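Adgrl2 and Lpp are long genes of the mouse genome around which the repressor BCL6 and the nuclear receptor PPARα have many binding sites in liver. Peaks belonged to a locus when their centre lay in the gene, or when the nearest transcription start site (TSS) of a protein-coding RefSeq gene, within 1 Mb, was that of Adgrl2 or Lpp. By this rule the 7 deposited peak lists held 147 peaks at Adgrl2 and 141 at Lpp, 288 of 102931 peaks in all. Joined across the 6 C57BL/6 lists when centres lay within 200 bp, they formed 45 sites at Adgrl2 and 43 at Lpp, 88 of 38462 sites in the genome. Both genes were chosen by the number of sites that BCL6 and PPARα share near them in the same lists (26 at Adgrl2 and 23 at Lpp, ranks 1 and 4 among 21774 coding genes). The numbers and densities of peaks and shared sites given here are therefore descriptions, with no test.

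BCL6 is a zinc finger protein that binds DNA and recruits corepressor complexes, best known from germinal centre B cells. PPARα and PPARδ are nuclear receptors that bind DNA as heterodimers with RXR; PPARα activates genes of fatty acid oxidation in the fasted liver. Adgrl2 encodes latrophilin 2, an adhesion G protein-coupled receptor whose family binds teneurins and FLRT proteins on other cells. Lpp encodes a LIM domain protein of the zyxin family found at focal adhesions and cell contacts, and its neighbour upstream on the chromosome is the Bcl6 gene itself.

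Chromatin immunoprecipitation with sequencing (ChIP-seq) had been carried out on livers of C57BL/6 mice. The 6 main lists came from animals of genotype WT, fed chow ad libitum or fasted overnight, for each of BCL6, PPARα and PPARδ. The other list was BCL6 in fed Bcl6 fl/fl livers, which carry floxed Bcl6 alleles on the C57BL/6 strain without Cre. Each list combined 3 replicates, so that a peak is a call made once per group; the lists give positions only, the number of reads is unknown, and no value per animal can be compared. A site called in 1 feeding state only is one that met the authors' threshold there and not in the other state, which does not show that the factor was absent. Sites of a list share their libraries and are not replicates, and the 95% Wilson intervals below cover counting error only.

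In mm10, Adgrl2 spans chr3:148815586-148989096 on the minus strand (174 kb) and Lpp spans chr16:24393350-24992578 on the plus strand (599 kb). The stretch that the rule assigned to Adgrl2 was 2.03 Mb long, held no other coding gene and 15 long non-coding RNA (lncRNA) genes, and ended 1 Mb from the gene's 5′ end on the upstream side. That of Lpp was 0.813 Mb long, held 3 lncRNA genes and was bounded by Bcl6 and Tprg. The outermost Adgrl2 sites lay 946 kb upstream and 854 kb downstream of the 5′ end, and the next sites beyond them lay 1345 kb and 1350 kb away. At Lpp, the outermost sites lay 201 kb upstream and 568 kb downstream of the 5′ end; the next sites, 232 kb upstream and 648 kb downstream, were nearer to Bcl6 and Tprg. All 3 factors were called together at 8 Adgrl2 sites and 11 Lpp sites, and 2 and 3 of these held a match to the DNA elements of the factors. Their sequences are shown because all 3 factors were called there; each holds matches to only 1 of the 2 elements. They cover 200 bases around the mean centre of the peaks, read from RefSeq's GRCm38.p6 (mm10), 5′ to 3′. Capitals mark matches to the BCL6 element TTCCTAGAA with at most 1 mismatch, or to 2 AGGTCA half-sites in direct repeat with 1 base between them (DR1, the PPAR element) with at most 2 mismatches, on either strand.
Adgrl2 site 116 kb upstream, chr3:149105282-149105481, plus strand: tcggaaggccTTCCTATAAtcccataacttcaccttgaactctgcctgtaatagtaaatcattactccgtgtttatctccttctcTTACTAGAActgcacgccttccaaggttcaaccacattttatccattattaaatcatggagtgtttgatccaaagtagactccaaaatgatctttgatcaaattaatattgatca
Adgrl2 site 181 kb upstream, chr3:149169531-149169730, plus strand: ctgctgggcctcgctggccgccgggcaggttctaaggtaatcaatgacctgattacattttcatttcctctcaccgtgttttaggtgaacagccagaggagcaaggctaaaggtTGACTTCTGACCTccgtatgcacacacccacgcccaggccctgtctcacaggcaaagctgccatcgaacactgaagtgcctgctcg
Lpp site 5.75 kb inside the gene, chr16:24399001-24399200, plus strand: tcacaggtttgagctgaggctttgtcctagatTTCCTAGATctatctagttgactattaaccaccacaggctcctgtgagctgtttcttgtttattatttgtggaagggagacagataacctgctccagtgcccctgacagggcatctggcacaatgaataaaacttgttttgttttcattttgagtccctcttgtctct
Lpp site 481 kb inside the gene, chr16:24874336-24874535, plus strand: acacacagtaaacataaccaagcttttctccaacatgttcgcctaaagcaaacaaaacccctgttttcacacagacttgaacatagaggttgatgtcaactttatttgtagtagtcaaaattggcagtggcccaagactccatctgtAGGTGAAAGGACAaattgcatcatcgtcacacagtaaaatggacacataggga
Lpp site 486 kb inside the gene, chr16:24878998-24879197, plus strand: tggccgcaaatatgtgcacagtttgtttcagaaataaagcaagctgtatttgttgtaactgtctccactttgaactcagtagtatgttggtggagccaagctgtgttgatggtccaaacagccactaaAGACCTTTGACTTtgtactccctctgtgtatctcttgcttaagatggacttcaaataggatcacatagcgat
The first holds 2 BCL6-like matches, TTCCTAtAA and TTaCTAGAA, with mismatches here in lower case. The second holds AGGTCAgAaGTCA, read on the minus strand and 20 bp from the centre of the site. In DR1 matches the free base between the half-sites is also in lower case and is not a mismatch. The Lpp site 5.75 kb inside the gene has 1 BCL6-like match and no DR1 match. The pair near 481 and 486 kb lie 4.66 kb apart in intron 9 and hold AGGTgAaAGGaCA and, on the minus strand, AaGTCAaAGGTCt. All 5 sites had PPARα peaks in fed and fasted livers and a PPARδ peak only in fed livers. BCL6 was called in both states at 4 of them, and in fed livers only at the Adgrl2 site 181 kb upstream.

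BCL6 peaks were more numerous at both genes in fed than in fasted livers, whereas PPARα peaks were slightly more numerous in fasted livers; within the Adgrl2 gene alone the PPARα numbers turned, with 5 peaks fed and 4 fasted. At Adgrl2 there were 33 BCL6 peaks in fed and 18 in fasted livers, 27 and 30 PPARα peaks, and 11 and 2 PPARδ peaks. At Lpp the numbers were 28 and 17 for BCL6, 26 and 32 for PPARα, and 11 and 2 for PPARδ. The lists themselves differ in the same directions: BCL6 had 15642 peaks fed and 9613 fasted, PPARα 21410 and 29085, and PPARδ 7328 and 2399. In fed C57BL/6 livers Adgrl2 and Lpp ranked 1 and 2 of all coding genes by BCL6 peaks. In the fed Bcl6 fl/fl list Adgrl2 had 26 BCL6 peaks and Lpp 25 of 17454, ranks 5 and 6. By PPARδ peaks in fed livers both had rank 7, and by those in fasted livers rank 106.

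**Figure D1:**
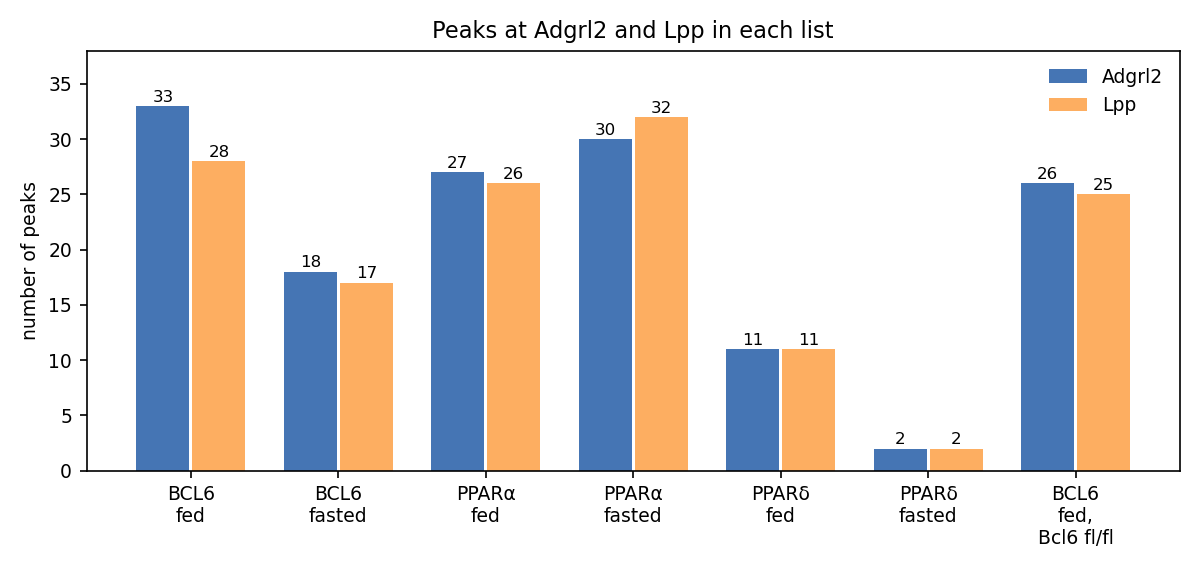
Number of peaks at Adgrl2 (blue) and Lpp (orange) in each of the 7 lists, each list combining 3 replicates. BCL6 bars are higher fed than fasted (33 against 18, 28 against 17), and both genes have only 2 PPARδ peaks in fasted livers.

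Most Adgrl2 sites lay upstream of the gene and most Lpp sites within it. Of the Adgrl2 sites, 30 lay upstream of the gene, 7 within it, all intronic, and 8 downstream, or 30.0, 40.3 and 9.29 sites per Mb of each stretch. Of the Lpp sites, 18 lay upstream (89.0 per Mb), 25 within the gene (41.7 per Mb) and none in the 11.8 kb downstream that the rule assigned to it. Over the whole stretch Adgrl2 had 22.1 sites per Mb and Lpp 52.9, against 14.1 over the genome. Introns and exons were those of selected RefSeq transcripts of Adgrl2 and Lpp, and no site was centred in such an exon. Exons of their other transcripts and of lncRNA genes were not checked, nor were exons at promoter sites. Part of the upstream sites lay in lncRNA genes: 9 in Gm30382, 4 in Gm30575 and 3 in Gm31244 at Adgrl2, and 12 in Gm31814 at Lpp.

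**Figure D2:**
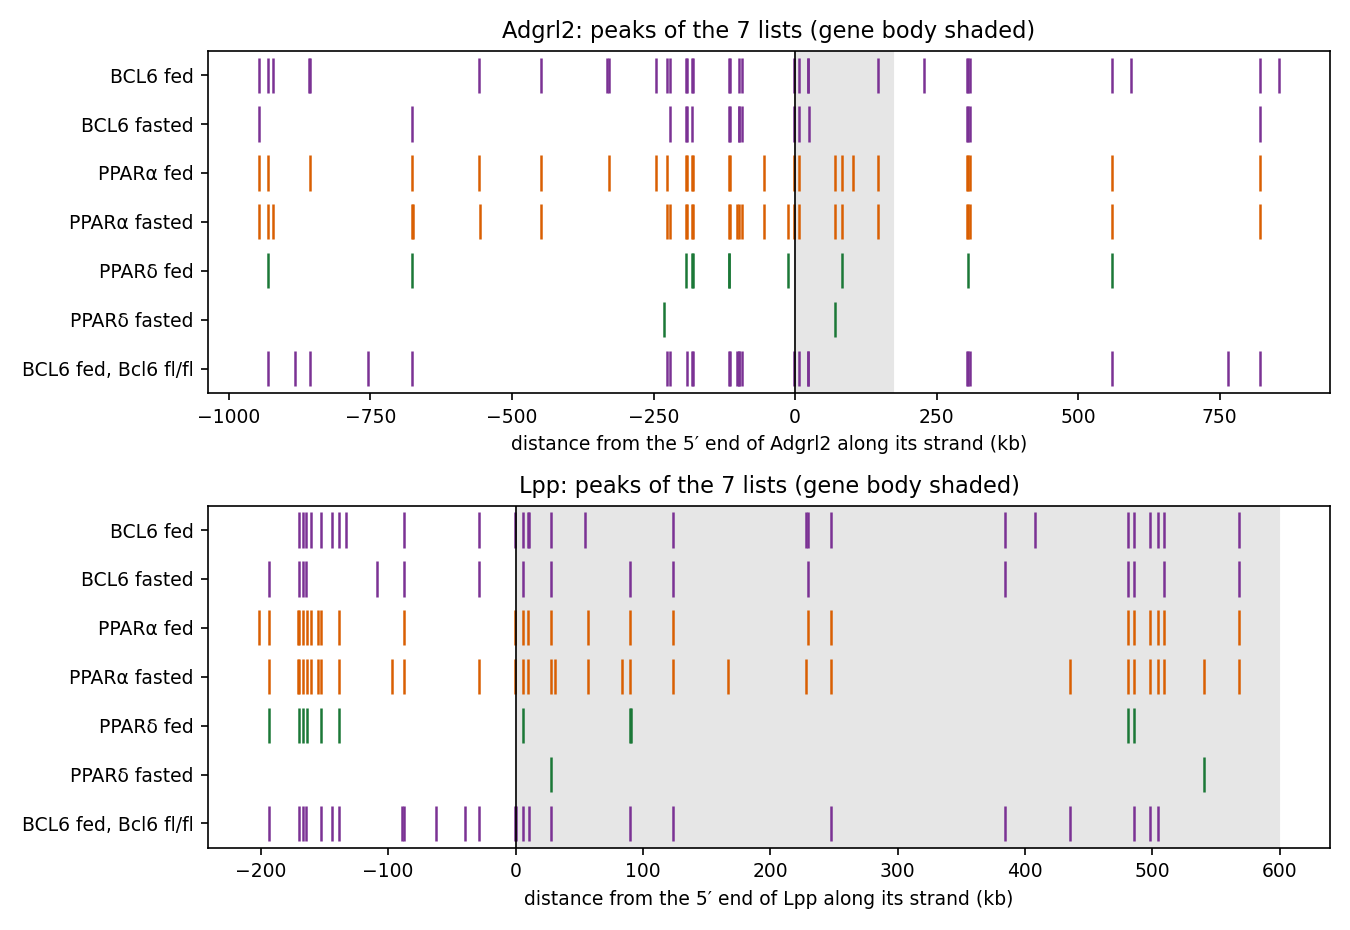
Each tick is a peak, by its distance in kb from the 5′ end of the gene along its strand, with 1 row per list and the gene body shaded. At Lpp the ticks crowd 133 to 171 kb upstream of the gene, while those of Adgrl2 run from 946 kb upstream to 854 kb downstream.

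Most sites of both genes carried BCL6, PPARα or both, as over the genome, where only 2.97% of sites had PPARδ alone. At Adgrl2, 35 of 45 sites had BCL6, 34 PPARα and 13 PPARδ; at Lpp, 31, 34 and 13 of 43 did. Over the genome 45.7% of sites had BCL6, 86.8% PPARα and 21.3% PPARδ, so that the share with PPARα was lower at both genes (75.6% and 79.1%) and the share with BCL6 higher (77.8% and 72.1%). BCL6 and PPARα shared 26 and 23 sites, the number that chose the genes. The shares of sites with BCL6, with PPARα alone and with all 3 factors are not independent of that choice. They are given beside the genome without a test. BCL6 stood alone at 9 and 8 sites, and PPARα alone at 5 and 10, beside 10.0% and 45.3% of all sites. PPARδ stood alone at 2 sites of Adgrl2 and 1 of Lpp, and no site had BCL6 with PPARδ but without PPARα. Sites of all 3 factors made up 17.8% (8 of 45; interval 9.29 to 31.3) at Adgrl2 and 25.6% (11 of 43; 14.9 to 40.2) at Lpp, beside 12.1% over the genome. None of the 88 sites was called in all 6 lists, which allows a share of up to 4.18% by the Wilson interval; over the genome 1.76% were. Of the sites with BCL6 and PPARα, PPARδ was also called at 8 of 26 at Adgrl2 and 11 of 23 at Lpp, beside 34.1% over the genome.

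Sites of the 3 factors differed in the feeding state in which they were called. BCL6 sites were split between fed only and both states: at Adgrl2 17 were called in fed livers only (48.6%; 33.0 to 64.4), 16 in both (45.7%) and 2 in fasted livers only (5.71%). At Lpp the numbers were 14, 14 and 3. These shares lie near those of all BCL6 sites, which were 45.3% fed only, 43.6% both and 11.0% fasted only. PPARα sites were mostly called in both states, 23 of 34 at Adgrl2 (67.6%; 50.8 to 80.9) and 24 of 34 at Lpp (70.6%; 53.8 to 83.2), where 51.3% of all PPARα sites were. Calls restricted to fasted livers accounted for 7 Adgrl2 PPARα sites (20.6%; 10.3 to 36.8) and 8 Lpp sites (23.5%; 12.4 to 40.0), beside 35.8% over the genome, and in fed livers only at 4 and 2 sites, beside 12.8%. The genes were chosen by shared sites, and 49 of their 68 PPARα sites carried BCL6, against 13633 of 33371 over the genome. Where BCL6 was called, 79.6% of PPARα sites at the 2 genes together were called in both states, beside 76.3% over the genome. Without BCL6, 42.1% were (8 of 19), beside 34.0%. PPARδ sites showed no overlap between the states. At each gene 11 of 13 were called in fed livers only (84.6%; 57.8 to 95.7) and the other 2 in fasted livers only, so that 0 of 26 were called in both, which allows a share of up to 12.9%. Over the genome 70.7% of PPARδ sites were called in fed livers only, 18.7% in both and 10.6% in fasted livers only.

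**Figure D3:**
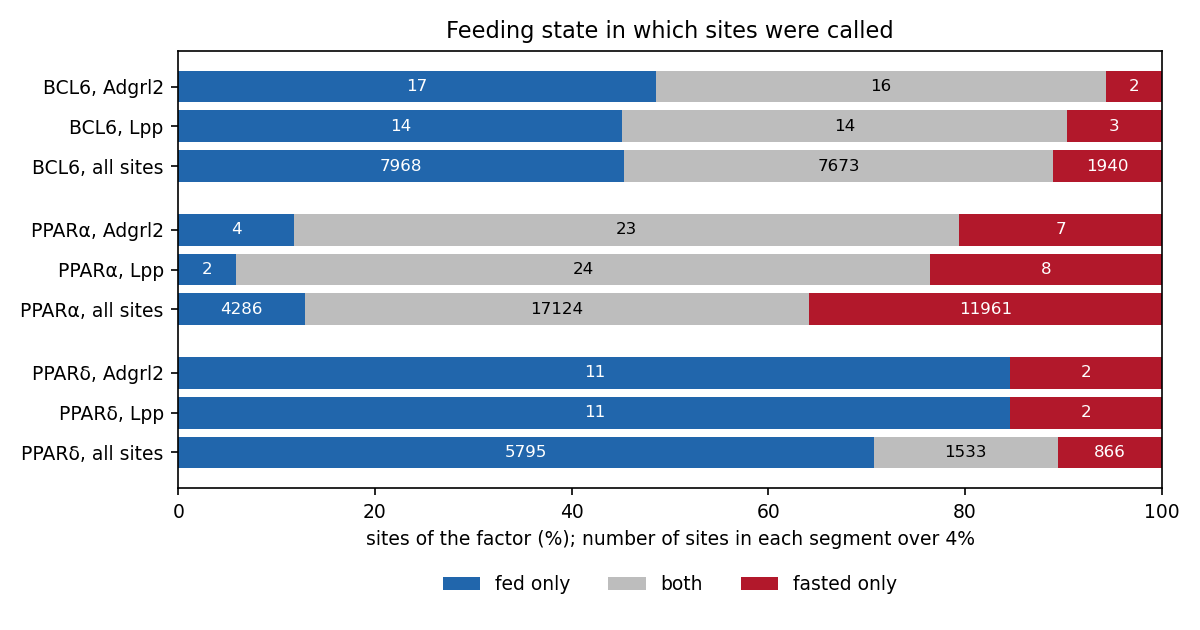
Share of the sites of each factor called in fed livers only (blue), in both states (grey) or in fasted livers only (red) at Adgrl2, at Lpp and over the genome, with numbers of sites in the bars. The PPARδ bars of both genes have no grey part (0 of 26 sites), and the BCL6 bars resemble those of all BCL6 sites.

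The 2 genes were compared with each other on 4 measures other than the number of shared sites that chose them. The tests were two-sided Fisher's exact tests on numbers of sites, with Benjamini-Hochberg adjustment over the 4. The share of BCL6 sites called in fed livers only gave an odds ratio of Adgrl2 to Lpp of 1.15 (exact p = 0.81, adjusted p = 1). The odds ratio was 0.843 (exact p = 1) for PPARα sites called in fasted livers only and 1 (exact p = 1) for PPARδ sites called in fed livers only. For PPARδ at sites of BCL6 and PPARα it was 0.485 (exact p = 0.254, adjusted p = 1). No difference between the genes was detectable with 13 to 35 sites a measure, which does not show that their states are alike. The tests count sites, which share their libraries and are not replicates, so the p-values do not cover variation between animals. The last measure was counted on the shared sites that chose the genes. The BCL6 and PPARα measures are not independent of that choice either, since their states differed over the genome between shared and other sites.

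The state of a site was also counted by whether the other factor was called there. BCL6 sites without PPARα were called in fed livers only at 7 of 9 Adgrl2 and 6 of 8 Lpp sites, beside 66.0% over the genome. With PPARα, 10 of 26 and 8 of 23 were, beside 39.3%. PPARα sites without BCL6 were called in fasted livers only at 3 of 8 Adgrl2 and 6 of 11 Lpp sites, beside 52.6%, whereas with BCL6 4 of 26 and 2 of 23 were, beside 11.6%. For each factor the share was higher without the other factor than with it, at each gene and over the genome; the differences within the genes were not tested. At shared sites the most frequent combination was a call of both factors in both states, at 12 of 26 Adgrl2 and 11 of 23 Lpp sites, beside 44.0% over the genome. BCL6 fed only paired with PPARα called in each state followed with 6 and 7 sites, beside 25.1%.

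A single shared site at each gene combined a BCL6 call restricted to fed livers with a PPARα call restricted to fasted livers, beside 5.84% of shared sites over the genome. At Adgrl2 this was chr3:149910733-149911031, 922 kb upstream in the lncRNA gene Gm31244. The BCL6 and PPARα centres lay 79 bp apart there, the widest of the 26 shared sites when each is measured by its closest centres over both states. At Lpp it was chr16:24621202-24621482 in intron 5, 228 kb from the 5′ end, where the centres lay 61 bp apart. Neither had a PPARδ peak, a match to either element in its window of 200 bp, or a BCL6 peak in Bcl6 fl/fl livers within 200 bp.

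The PPARα sites called in fasted livers only were counted by their place, without a test. Over the genome, 35.8% of all PPARα sites and 11.6% of those with BCL6 were called in fasted livers only. All 7 such sites at Adgrl2 lay upstream of the gene, among 24 PPARα sites there. Within the gene and downstream, 0 of 5 and 0 of 5 were so called, and all 5 downstream carried BCL6. At Lpp 6 such sites lay among the 20 PPARα sites within the gene and 2 among the 14 upstream. Between 94.5 and 102 kb upstream of Adgrl2, 4 sites within 7.38 kb, in the lncRNA gene Gm30575 or its promoter, held 3 PPARα sites, each called in fasted livers only. A PPARα site in intron 8 of Lpp, chr16:24828244-24828466, was also called in fasted livers only. Its centre lay 458 bp from the middle of the hairpin of Mir28a, a microRNA gene at chr16:24827855-24827940 on the same strand; the next Lpp sites lay over 26 kb from it. A BCL6 peak of Bcl6 fl/fl livers lay within 200 bp of that PPARα site, although no BCL6 peak of C57BL/6 livers did.

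Neighbouring sites were about as far apart at Adgrl2 as elsewhere in the genome and closer together at Lpp, although not within the Lpp gene alone, where the median gap was 17.7 kb. Gaps between neighbouring centres had a median of 13.5 kb at Adgrl2 (44 gaps, 0.465 to 251 kb) and 7.98 kb at Lpp (42 gaps, 0.362 to 136 kb), beside 12.4 kb over the genome. Between neighbouring BCL6 sites the median gap was 17.4 kb at Adgrl2 and 14.8 kb at Lpp, beside 26.1 kb; for PPARα it was 18.2 and 12.6 kb, beside 13.5 kb. PPARδ sites were spaced by a median of 73.3 kb at Adgrl2 and 17.8 kb at Lpp, beside 65.8 kb. Neighbours within 10 kb made up 43.2% of gaps at Adgrl2 and 54.8% at Lpp, beside 45.6%. Spacing is not independent of the number of shared sites by which the genes were selected, and is given without a test.

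**Figure D4:**
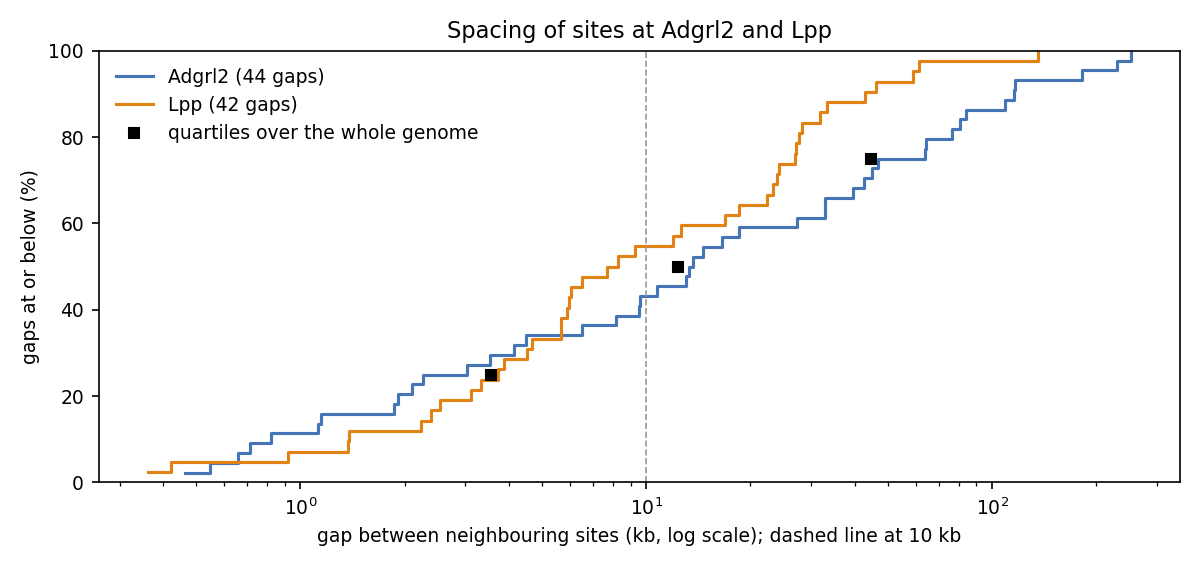
Cumulative share of gaps between neighbouring sites (kb, log scale) at Adgrl2 (blue) and Lpp (orange), with the quartiles over the genome as squares. The Adgrl2 line passes near all 3 squares, and the Lpp line reaches 50% near 8 kb and stays to the left of the upper square.

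Linked by gaps of at most 10 kb, the Adgrl2 sites fell into 26 groups of at most 4 sites, 14 of them single sites. The Lpp sites fell into 20 groups, 10 of them single. The largest Lpp group held 10 sites within 38.3 kb, chr16:24222097-24260584, 133 to 171 kb upstream of Lpp in the lncRNA gene Gm31814. Lying between the 2 genes, it was 233 to 272 kb from the 5′ end of Bcl6. Of the 20951 groups in the genome, 98 were at least as large (0.468%). Its 8 PPARα sites, 6 of them with BCL6, were all called in both states. Over the genome 51.3% of PPARα sites were, and 76.3% of those with BCL6. Its 5 PPARδ sites were called in fed livers only, beside 70.7% over the genome. Its 8 BCL6 sites were called in fed livers only (5) or in both states (3), beside 45.3% and 43.6%. The second group of Lpp, 5 sites within 11.1 kb, ran from the promoter into intron 1. At Adgrl2, 4 sites within 12.7 kb, 181 to 193 kb upstream, all carried both BCL6 and PPARα, and 3 of them PPARδ in fed livers only.

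Promoters, taken as 1000 bp upstream to 100 bp downstream of a TSS, held 1 of 45 Adgrl2 sites (2.22%) and 4 of 43 Lpp sites (9.30%). The share over the genome was not counted. The Adgrl2 site and an Lpp site lay at promoters of other genes, Gm30575 and Gm38456. No site lay at a promoter of Adgrl2 itself. The gene's nearest site was 1656 bp upstream of the 5′ end, with BCL6 and PPARα called in both states. The closest centres of the 2 factors there, a fasted BCL6 and a fed PPARα peak, lay 14 bp apart. Lpp had 3 sites at its promoters, each of 1 factor. A BCL6 site called in fed livers only lay 575 bp upstream of the 5′ end, and a PPARα site called in both states lay 213 bp upstream, 362 bp from it. The other was a BCL6 site called in fed livers only, 376 bp upstream of an alternative TSS and 54.4 kb inside the gene. The sequences of the first pair show the promoter sites side by side: 200 bases around the BCL6 site, and the RefSeq promoter (250 bases before to 50 after the 5′ end, GRCm38.p6), which contains the centre of the PPARα site. They were chosen after the values were seen, and capitals mark matches as above.
Lpp BCL6 site 575 bp upstream, chr16:24392675-24392874, plus strand: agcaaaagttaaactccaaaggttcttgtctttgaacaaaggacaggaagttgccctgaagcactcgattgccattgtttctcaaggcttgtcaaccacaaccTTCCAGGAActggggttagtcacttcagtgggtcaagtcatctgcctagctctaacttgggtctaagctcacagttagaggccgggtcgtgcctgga
Lpp promoter, chr16:24393100-24393399, plus strand: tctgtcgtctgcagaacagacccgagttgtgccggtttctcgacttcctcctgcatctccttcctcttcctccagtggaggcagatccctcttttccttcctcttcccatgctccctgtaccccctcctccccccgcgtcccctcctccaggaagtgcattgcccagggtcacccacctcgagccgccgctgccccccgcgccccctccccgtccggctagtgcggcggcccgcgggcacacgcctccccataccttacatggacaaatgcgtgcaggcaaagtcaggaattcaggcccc
The BCL6 site holds TTCCTgGAA on the minus strand, 8 bp from its centre, while the promoter window holds no match to either element. Among 32851 RefSeq promoters of this length, 8.63% hold a BCL6-like match and 3.86% a DR1 match.

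Where factors shared a site, their closest centres nearly coincided. Each distance is the smallest over the fed and fasted centres of a site. It can pair a fed with a fasted peak, and distances within a feeding state can be larger. The median distance from a BCL6 to the nearest PPARα centre was 14.5 bp at Adgrl2 (26 sites, 1 to 79 bp) and 16 bp at Lpp (23 sites, 0 to 88 bp), beside 14 bp over the genome. Between PPARδ and PPARα it was 11 bp at Adgrl2 (11 sites) and 9.5 bp at Lpp (12 sites), beside 15 bp. These medians are far below the peak widths of 192 to 222 bp.

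In Bcl6 fl/fl livers BCL6 was called again at 24 of the 30 BCL6 sites that C57BL/6 livers had in both states, and at 14 of the 31 that they had in fed livers only. Of 33 fed C57BL/6 peaks at Adgrl2, 20 had a floxed peak within 200 bp (60.6%; 43.7 to 75.3), and of 28 at Lpp 18 did (64.3%; 45.8 to 79.3), beside 69.4% of the whole list. In the other direction 20 of 26 floxed peaks at Adgrl2 and 18 of 25 at Lpp had a fed C57BL/6 peak, beside 62.2%. By site, a floxed peak was found at 6 of 17 Adgrl2 and 8 of 14 Lpp sites called in fed livers only, beside 51.0% over the genome. At sites called in both states it was found at 14 of 16 and 10 of 14, beside 88.6%. The floxed list added 4 BCL6 peaks at Adgrl2 and 5 at Lpp with no BCL6 peak in C57BL/6 livers of either state; 1 of each coincided with a PPARα peak of fasted livers. The replicates behind these calls come from other animals, and the depth of neither list is known.

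The BCL6 element occurred at 10 Adgrl2 sites (22.2%; 12.5 to 36.3) and 6 Lpp sites (14.0%; 6.56 to 27.3), beside 9.86% of all sites in the genome. Of these, 9 and 6 carried a BCL6 peak; the exception, 12.4 kb upstream of Adgrl2, had PPARα and PPARδ peaks. An exact TTCCTAGAA was found at 2 Adgrl2 sites, 821 and 309 kb downstream of the 5′ end, both with BCL6 and PPARα called in both states, and at no Lpp site, beside 385 of 38462 sites in the genome. The DR1 element occurred at 2 Adgrl2 sites (4.44%; 1.23 to 14.8) and 5 Lpp sites (11.6%; 5.07 to 24.5), beside 13.5%. PPARα was called at both Adgrl2 sites and at 4 of the Lpp sites; the fifth, AGGTCAaAGGTCt 133 kb upstream of Lpp, lay at a site called for BCL6 in fed livers only. The sites here and those of the genome are unlike mixes of factors. BCL6 was called at 75% of the 88 sites and 45.7% of all sites, PPARα at 77.3% and 86.8%. Shares of matches were not compared with the genome within the sites of a factor. A match describes the letters of the DNA and does not show which factor bound there.

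By the numbers of peaks in the 7 lists, each divided by the list's total, the nearest of all 21774 coding genes to Adgrl2 was Lpp, and the nearest to Lpp was Adgrl2 (Euclidean distance). For both, the next were Tbl1xr1, Pik3r1, Nfia and Irs2, which had 24, 24, 18 and 21 shared sites. The likeness rests on 7 numbers, all high in rank except PPARδ in fasted livers, where each gene had 2 peaks (rank 106). The Bcl6 gene, next to Lpp, had 23 sites, of which 13 were shared, and its BCL6 peaks numbered 16 in fed and 7 in fasted livers. Relatives had fewer sites, as did nearly all coding genes, of which only 6 had at least 40 sites. Of 10 latrophilins, FLRT and teneurin genes, 8 had a site and 6 a shared site, with a median of 4 sites. Tenm3, a teneurin, had the most, 21 sites with 11 shared, and Adgrl3 followed with 16 and 3, whereas Adgrl1 had none. Of 10 zyxin family genes and partners, 7 had a site and 4 a shared site, with a median of 2.5; the actin crosslinkers Actn4 and Actn1 led with 10 and 9 sites, and Zyx had 2, both without BCL6. Of all coding genes 50.6% had at least 1 site, with a median of 1 over all of them.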

How the data were processed

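ChIP-seq peaks of 7 groups of liver samples, each of 3 replicates (21 of 59 samples), were analysed; the others were not used here. Reads had been mapped to mm10 by the authors using Bowtie, with unique alignments and 1 read per position retained. The authors called peaks over pooled replicates relative to input (HOMER), and the authors kept peaks that their DESeq2 analysis found enriched. The deposited files hold peak positions in bp and nothing else, with no count, score or p-value, so no normalization applies and depth is unknown. Whether starts count from 0 or 1 is not stated, and coordinates are printed as deposited. Peak lists hold no expression, so the tissue label was not checked against markers.

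Positions were compared by peak centres. Sites were formed by single linkage of centres within 200 bp over the 6 C57BL/6 lists. Genes, TSSs and sequences came from RefSeq on GRCm38.p6. Intervals are 95% Wilson intervals. The genes, gene lists and measures were chosen with earlier results of these data known. Named sites were those at promoters, those called in all 6 lists (none), those with BCL6 in fed and PPARα in fasted livers only, and the nearest and farthest; others were named after their values were seen. Joining, nearest TSSs and motif search were tested on simulated data. Alternatives covered the joining distance, the rule for membership, the BCL6 list, the linking gap and the motif search. Scripts ran in Python 3.11.15 with SciPy 1.17.1 and NumPy 2.4.6, and plots were drawn with Matplotlib 3.10.9.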

Additional observations from a re-analysis of the deposited data

How the results depend on the processing

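No paired analysis was possible because each list combines its replicates and holds no value per replicate; leaving out a replicate was not possible for the same reason. Joining centres within 100 or 400 bp, using the nearest TSS alone, gene 5′ ends only, or the floxed BCL6 list in fed livers moved no number by over 1.5 times and no share beyond its interval. Gene bodies only left 20 peaks and 7 sites (2 shared) at Adgrl2 and 79 peaks and 25 sites (14 shared) at Lpp, by construction; groups then held at most 2 and 3 sites, the median gap at Lpp was 17.7 kb, above the 12.4 kb of the genome, and at Adgrl2 PPARα fasted only fell to 0% and PPARδ fed only to 50% of its few sites. A reach of 100 kb left 39 peaks at Adgrl2, where BCL6 then had 7 peaks fed and 6 fasted, and lowered PPARα fed peaks at Lpp to 16 and PPARδ fed peaks to 5. Linking within 20 kb gave groups of up to 7 sites at Adgrl2, and within 5 kb of up to 5 at Lpp. In 50 bp windows the BCL6 element was found at 3 Adgrl2 and 2 Lpp sites and DR1 at 1 and 1 (2.73% and 4.38% of all sites); with 1 mismatch fewer at 2 and 0, and DR1 at 1 and 2 (385 and 1220 of 38462 sites); with repeats masked DR1 remained at 1 Adgrl2 site. The adjusted p of the 4 Fisher's exact tests was 1 under all 16 alternatives. Unknown depth limits every comparison of fed with fasted calls.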
